A study of Mus musculus with 6 samples.

Results

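The genes described here build the thick filament of the cardiac sarcomere, and they were taken from the table by name. They are Myh6, Myh7 and Myh7b (myosin heavy chains), Myl2, Myl3, Myl4 and Myl7 (myosin light chains), Mybpc3 (cardiac myosin-binding protein C) and Mylk3 (cardiac myosin light chain kinase). All 9 were found among the 54532 genes of the table, and all 9 were among the 12944 genes that reached a mean of 0.5 FPKM over the 6 hearts and were tested. FPKM is fragments per kilobase of gene length, scaled to a library size that was not the plain sum of counted reads, as given below. Comparisons of a gene between hearts do not rest on that length, whereas comparisons of levels between genes do. The length used in the table was 4637 bases for Myl4, 1950 for Myl2 and 2044 for Myl3, against 943, 889 and 937 bases in the longest coding transcript, while for Myl7 (590) and Mybpc3 (4163) the lengths were equal.

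RNA was sequenced from 3 control hearts (Ctrl, Mrps5 fl/fl) and 3 conditional knockout hearts (cKO, Mrps5 fl/fl; MCM). Mrps5 encodes a protein of the small mitochondrial ribosomal subunit. MCM is the αMHC-MerCreMer transgene, a Cre recombinase that becomes active with tamoxifen and is driven in cardiomyocytes by the promoter of Myh6, which is itself 1 of the 9 genes. Mice of both groups received tamoxifen at 8 weeks of age (45 mg/kg/day for 5 days), and the titles place collection 12 weeks after the injections, whereas the methods state a younger age than that implies. Since Ctrl mice carried no transgene, loss of Mrps5 and presence of the active Cre cannot be told apart. The labels call the tissue heart, and the methods call it ventricular tissue.

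In each thick filament, myosin heavy chains form the motor and the tail. Each heavy chain neck carries an essential and a regulatory light chain. The adult mouse ventricle uses mainly the fast α heavy chain encoded by Myh6, while the slow β heavy chain encoded by Myh7 dominates before birth and is a classic marker of the stressed ventricle. Myl2 and Myl3 are the regulatory and essential light chains of the ventricle, and Myl7 and Myl4 are their atrial counterparts. Mybpc3 ties myosin heads to the filament backbone and tunes cross-bridge cycling, and Mylk3 phosphorylates the ventricular regulatory light chain.

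Recovered depth was 15989322 to 24875499 reads per heart. The library size implied by the FPKM was 0.980, 0.913 and 0.972 times these reads in Ctrl hearts 1 to 3. In each cKO heart it was 1.06 times. FPKM was thus higher in Ctrl and lower in cKO than recovered depth alone would give, and no fit on recovered depth was made. Mrps5 was at 5.20, 6.45 and 6.33 FPKM in Ctrl hearts 1 to 3 and at 1.12, 1.23 and 1.31 FPKM in cKO hearts 1 to 3, so that 20.4% of the control mean was left. The library of cKO heart 2 stood apart: the mean of Y-linked genes was 0 FPKM and Xist was at 10.7 FPKM, against 7.61 to 8.79 FPKM and at most 0.127 FPKM in the other hearts, although the methods describe male mice. Calls of the 9 genes and of the rows that overlap them are therefore also given without this heart where it changes them, and so are the counts of the gene lists. Of 10 cardiomyocyte markers, 6 were lower and 1 was higher in cKO (limma, Benjamini-Hochberg adjusted p under 0.05), and in bulk tissue fewer cardiomyocytes and less RNA per cardiomyocyte cannot be told apart.

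Of the 9 genes, 1 was higher in cKO (Myh7) and 4 were lower (Myh7b, Myl2, Myl3 and Mylk3). Over all genes tested, 33.3% were called in either direction, 16.3% higher and 17% lower. On the deposited scale, Ctrl and cKO values did not overlap for 6 of the 9 genes, and the same held for 51.2% of all genes tested. The median difference over the 9 genes was -0.60 in log2(FPKM + 1), beside -0.02 over all genes tested. The plot of the 9 genes by heart shows Myl2, Myl3, Myh7b and Mylk3 lower and Myh7 higher in cKO, and a scatter between hearts of a group in Myl4 and Myl7. Myh6 and Mybpc3 had lower means in cKO and were not called. The call count was sensitive to single hearts, running from 1 of 9 without cKO heart 1 to 7 of 9 without cKO heart 2. In these 2 fits 3255 and 3999 of the 12944 genes were called. It was 3 of 9 without Ctrl heart 1 or cKO heart 3, beside 3011 and 3502 of all genes. Without Ctrl heart 2 or Ctrl heart 3 it was 2 of 9, beside 2866 and 2850.

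**Figure D1:**
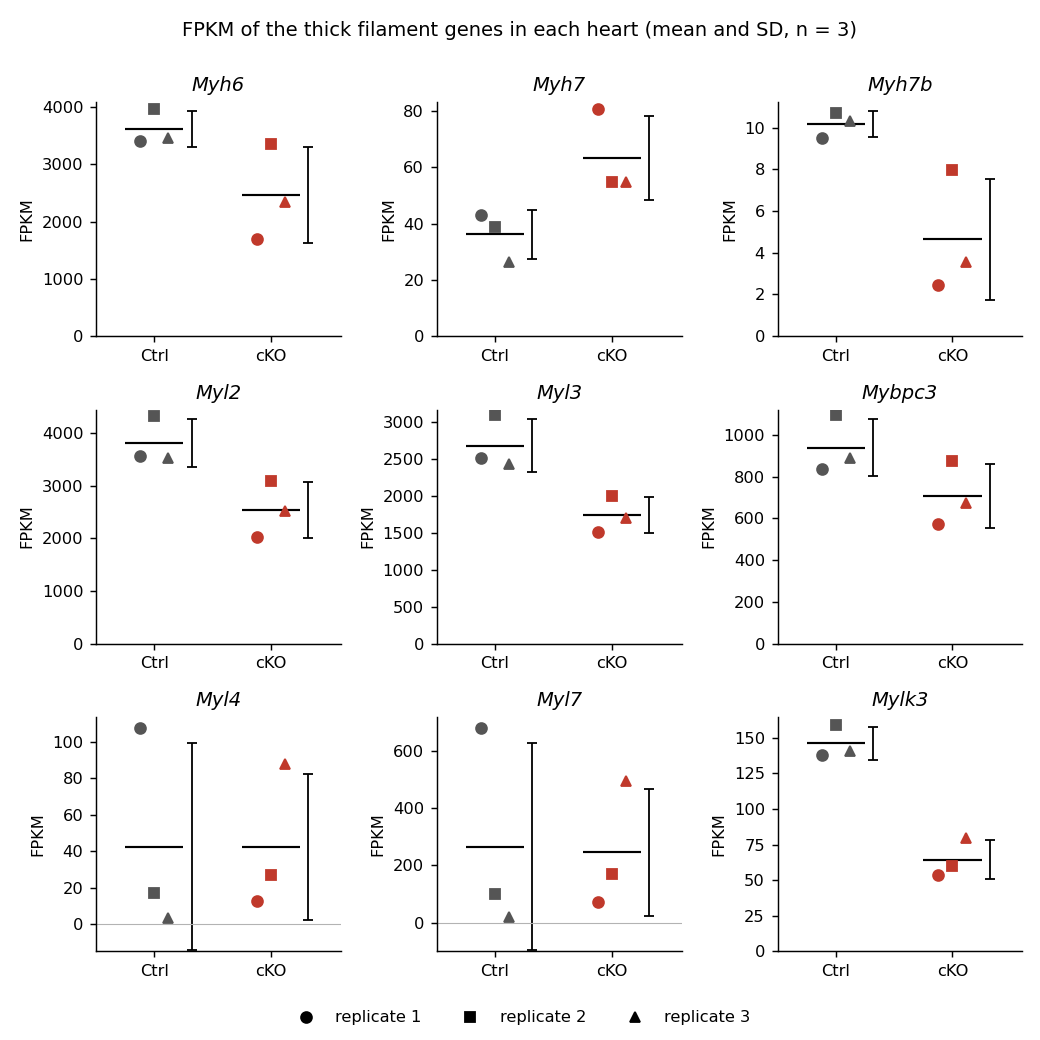
FPKM of each gene (vertical axis, a separate scale for each gene) in the 3 Ctrl hearts (grey) and 3 cKO hearts (red), with symbols for the replicate number, a line at the group mean and a bar of 1 SD. Ctrl and cKO points are separate for Myh6, Myh7, Myh7b, Myl2, Myl3 and Mylk3, and they overlap for Mybpc3, Myl4 and Myl7.

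By FPKM, and so by the gene length of the table, the order of mean levels in Ctrl hearts, from the highest, was Myl2, Myh6, Myl3, Mybpc3, Myl7, Mylk3, Myl4, Myh7 and Myh7b. Neighbours overlapped in range between Myl2 and Myh6, between Myl7 and Mylk3 and between Myl4 and Myh7. Myl2 was nevertheless above Myh6 in all 3 Ctrl hearts, at a ratio of means of 1.06. The order depended on the length: per length of the longest coding transcript, an alternative chosen after seeing the data, it was Myl2, Myl3, Myh6, Mybpc3, Myl7, Myl4, Mylk3, Myh7 and Myh7b, with Ctrl means of 8364 for Myl2, 5852 for Myl3 and 3974 for Myh6. The 9 genes together made up 2.31 to 2.55% of the summed FPKM in Ctrl hearts, and 1.44, 2.41 and 1.92% in cKO hearts 1 to 3.

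Myh6 (ENSMUSG00000040752) and Myh7 (ENSMUSG00000053093) lie next to each other on the minus strand of chromosome 14, with 3756 bases between them. Myh6 spans chr14:54941921-54966927 in GRCm38 coordinates and has 39 exons in its longest coding transcript, and Myh7 spans chr14:54970684-54994626 and has 41. Upstream sequences of both are shown because their group means differed in opposite directions, with Myh7 alone called, together with that of Myl7, the 1 of the 9 genes whose level varied most between Ctrl hearts. Each is the 250 bases before the RefSeq start site on GRCm38.p6, read 5′ to 3′ on the minus strand, at chr14:54966608-54966857, chr14:54994627-54994876 and chr11:5898783-5899032. Capitals mark matches to CATTCC, the core of the MCAT element bound by TEAD factors, on either strand.
Myh6: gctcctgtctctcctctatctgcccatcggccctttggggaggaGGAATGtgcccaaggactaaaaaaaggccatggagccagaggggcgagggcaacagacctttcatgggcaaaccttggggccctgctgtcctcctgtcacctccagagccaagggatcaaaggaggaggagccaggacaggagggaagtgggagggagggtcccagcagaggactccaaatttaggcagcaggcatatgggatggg
Myh7: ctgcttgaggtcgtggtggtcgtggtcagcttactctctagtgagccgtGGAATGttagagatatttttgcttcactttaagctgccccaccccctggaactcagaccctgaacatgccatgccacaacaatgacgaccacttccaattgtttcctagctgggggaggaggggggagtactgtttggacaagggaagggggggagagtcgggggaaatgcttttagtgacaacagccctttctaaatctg
Myl7: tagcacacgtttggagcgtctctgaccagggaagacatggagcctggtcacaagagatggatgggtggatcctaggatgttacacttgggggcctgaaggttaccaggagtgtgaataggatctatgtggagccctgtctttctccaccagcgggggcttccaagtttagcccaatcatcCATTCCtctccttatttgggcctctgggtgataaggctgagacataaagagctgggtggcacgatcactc
Myh6 and Myh7 each held a single match, beginning 206 and 201 bases before the RefSeq start site, and in Myl7 it began 70 bases before. The RefSeq start of Myh6 lay 320 bases inside the gene as the table gives it, so the window printed for Myh6 lies within that gene, while those of Myh7 and Myl7 adjoin the outer ends of their genes. Over all 9 genes, 4 held a match, the fourth being Myl3, beside 12.6% of 32851 RefSeq promoter windows of the same length. TATAAA was found on either strand in the window of Myl2 alone among the 9, beside 12.4% of all windows. A CArG box, the site of serum response factor, was matched in Myl3 and Myl7, beside 1.47% of all windows. An AGGTCA half-site, as bound by thyroid hormone receptors, was matched in Myh7b and Myl2, beside 14% of all windows, and a MEF2 site was matched in Mybpc3, beside 2.92%. The RefSeq start of Myl2 lay 7762 bases upstream of the gene in the table, and those of Myl3 and Mylk3 lay 21817 and 5304 bases inside it.

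Myh6 was lower in every cKO heart than in any Ctrl heart, without passing the test. Its level was 3406, 3975 and 3455 FPKM in Ctrl hearts 1 to 3 and 1692, 3348 and 2349 FPKM in cKO hearts 1 to 3. The groups separated narrowly, because cKO heart 2 was just under the lowest Ctrl heart. This separation was lost on scaling without genes encoded by mtDNA. On average cKO hearts held 68.2% of the Ctrl level. In log2(FPKM + 1) the difference was -0.60 (SE 0.24) with an adjusted p of 0.0907 in limma, so Myh6 was not called. Without cKO heart 2 the difference was -0.85 and the adjusted p was 0.0143.

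Myh7 was higher in cKO. Its level was 43.2, 38.8 and 26.4 FPKM in Ctrl hearts and 80.6, 54.9 and 54.9 FPKM in cKO hearts. All 3 cKO hearts were above all 3 Ctrl hearts, with cKO heart 1 the highest. The cKO mean was 175% of the Ctrl mean, and the difference in log2(FPKM + 1) was 0.80 (SE 0.22, adjusted p = 0.0309, limma). The call was lost without Ctrl heart 2 (adjusted p = 0.0635), without Ctrl heart 3 (0.0730) or without cKO heart 1 (0.0757), at differences of 0.86, 0.59 and 0.62. The group mean of Myh7 rose by 27.3 FPKM, and that of Myh6, which was not called, differed by -1149 FPKM.

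The share of Myh7 in Myh6 plus Myh7 was 1.25, 0.968 and 0.759% in Ctrl hearts 1 to 3 and 4.55, 1.61 and 2.28% in cKO hearts 1 to 3. Every cKO heart had a higher share than every Ctrl heart. The mean was 0.993% ± 0.248 (SD, n = 3) in Ctrl and 2.81% ± 1.54 (SD, n = 3) in cKO, and the exact permutation test, two-sided, gave p = 0.1 (0.233 after Benjamini-Hochberg adjustment over the 7 per-heart quantities tested). This is the smallest p that 3 against 3 hearts allow. Expressed as a ratio, Myh7 ran at 7.65 to 12.7 FPKM per 1000 FPKM of Myh6 in Ctrl and at 47.7, 16.4 and 23.4 in cKO hearts 1 to 3. The difference in share was 1.82 percentage points and depended on cKO heart 1, without which it was 0.953.

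The coding sequences of Myh6 and Myh7 were 91.6% identical over 5805 aligned bases, and 330 of 5964 windows of 150 bases in the Myh6 transcript, or 5.53%, occurred unchanged in that of Myh7. Taken alone, a 150-base read from such a stretch cannot be assigned to either gene. Reads were paired, and how often the mate lay outside such a stretch was not tested. How reads with several alignments were counted was not given in the sources used here, so the low level of Myh7 may hold reads of Myh6, and the size of that part was not tested. No window was shared between Myh7b and either of the others.

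Myh7b (ENSMUSG00000074652, chr2:155611212-155634307) encodes a slow myosin whose gene also hosts a microRNA. It was at 9.49, 10.7 and 10.3 FPKM in Ctrl hearts and at 2.47, 7.95 and 3.55 FPKM in cKO hearts. The Ctrl hearts lay close together and the cKO hearts spread below them, with cKO heart 2 nearest. On average they held 45.8% of the Ctrl level, and the difference in log2(FPKM + 1) was -1.10 (SE 0.32, adjusted p = 0.0365, limma). This call held in the fit without cKO heart 2, at a difference of -1.49 and an adjusted p of 0.00217. Without any other single heart it was lost, with adjusted p between 0.0779 (without Ctrl heart 1) and 0.0994 (without Ctrl heart 2), and between these 0.0937, 0.0794 and 0.0969 without Ctrl heart 3, cKO heart 1 and cKO heart 3.

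Against the summed heavy chains, Myh7b took 0.274, 0.266 and 0.296% in Ctrl hearts 1 to 3 and 0.139, 0.233 and 0.147% in cKO hearts. Its share was thus lower in all 3 cKO hearts (exact permutation p = 0.1, two-sided, 0.233 adjusted). The 3 heavy chains summed to 3459, 4024 and 3492 FPKM in Ctrl hearts and to 1775, 3411 and 2407 FPKM in cKO hearts, which was 69.2% of the control mean. The groups again did not overlap (exact permutation p = 0.1, 0.233 adjusted). The difference of -1127 FPKM was -749 FPKM without cKO heart 1.

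**Figure D2:**
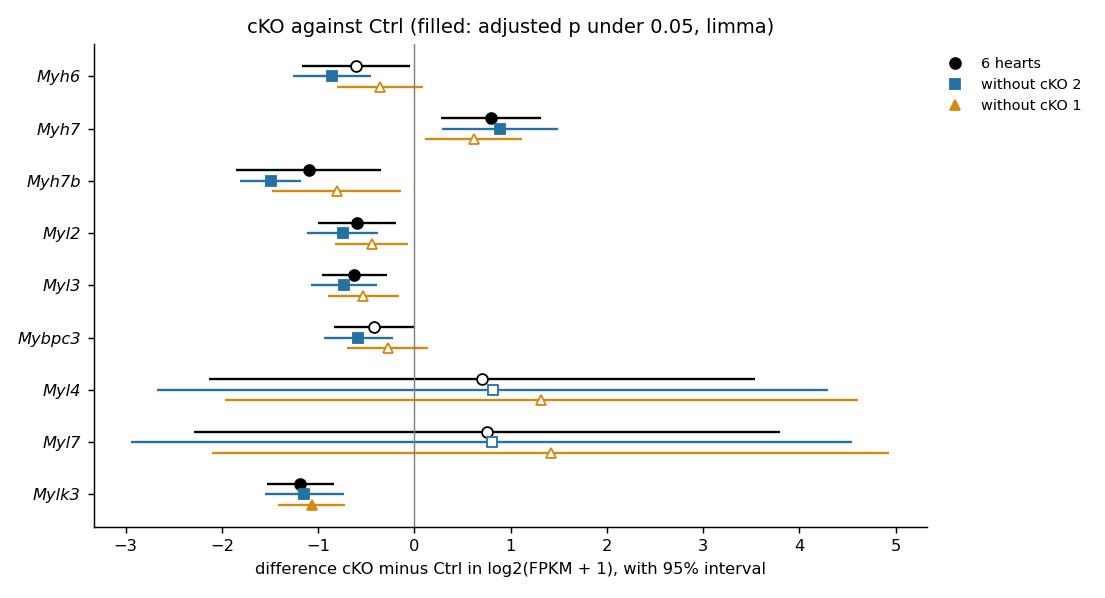
Difference of cKO minus Ctrl in log2(FPKM + 1) with its 95% interval (horizontal axis) for the 9 genes, fitted on all 6 hearts (circles), without cKO heart 2 (squares) and without cKO heart 1 (triangles). Filled symbols have an adjusted p under 0.05, and Mylk3 alone is filled in all 3 fits.

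Each heavy chain gene holds a microRNA in an intron, and mature sequences are printed here because the rows of their hairpins lie within the genes compared. They are given 5′ to 3′ from RefSeq (GRCm38.p6), with the seed, bases 2 to 8, in capitals.
mmu-miR-208a-3p: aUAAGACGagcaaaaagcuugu
mmu-miR-208b-3p: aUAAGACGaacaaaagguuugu
mmu-miR-499-5p: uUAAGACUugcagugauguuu
The first lies in intron 29 of Myh6 (chr14:54949072-54949093), the second in intron 31 of Myh7 (chr14:54975710-54975731) and the third in intron 19 of Myh7b (chr2:155622893-155622913). The first and second shared the seed UAAGACG, while miR-499-5p had UAAGACU. These libraries were made from poly-A RNA, so the rows count fragments over the hairpin loci and not mature microRNAs.

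At the hairpin locus of miR-208b the row read 249, 262 and 227 FPKM in Ctrl hearts and 75.2, 222 and 100 FPKM in cKO hearts. It was lower in each cKO heart than in any Ctrl heart, while its host Myh7 was higher in each. Over its 77 bases these values rested on 98 to 423 reads. The difference was -1.04 in log2(FPKM + 1) (adjusted p = 0.0654, limma) and -1.49 without cKO heart 2 (adjusted p = 0.00257). The row of miR-208a in Myh6 read 4.27 to 10.3 FPKM, from 6 to 20 reads, and was not called, although without cKO heart 1 it passed the threshold (0.70, adjusted p = 0.0234). That of miR-499 was listed at 0 in all 6 hearts.

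Other rows that overlap Myh7 also had their lowest values in cKO hearts 1 and 3. Mhrt, a heart-specific long non-coding RNA antisense to Myh7 (chr14:54968678-54974349), was at 28.9, 31.1 and 20.5 FPKM in Ctrl hearts and 9.49, 30.2 and 13.9 FPKM in cKO hearts. Here cKO heart 2 lay within the Ctrl range and the other cKO hearts lay below it. The difference was -0.69 (adjusted p = 0.203, limma) and, without cKO heart 2, -1.13 (0.0140). Gm17428 and Gm31251, both on the opposite strand, had the same order among the cKO hearts: 9.53, 56.2 and 16.7 FPKM for Gm17428, and 2.04, 10.3 and 3.06 FPKM for Gm31251. In both, cKO heart 2 was above every Ctrl heart. Without it their differences were -1.37 (adjusted p = 0.0142) and -0.99 (0.0182), against -0.68 (0.393) and -0.42 (0.514) with it. The library kit does not mark strand and strand use in counting was not given in the sources used here, so reads from Myh7 and from an antisense partner cannot be told apart.

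**Figure D3:**
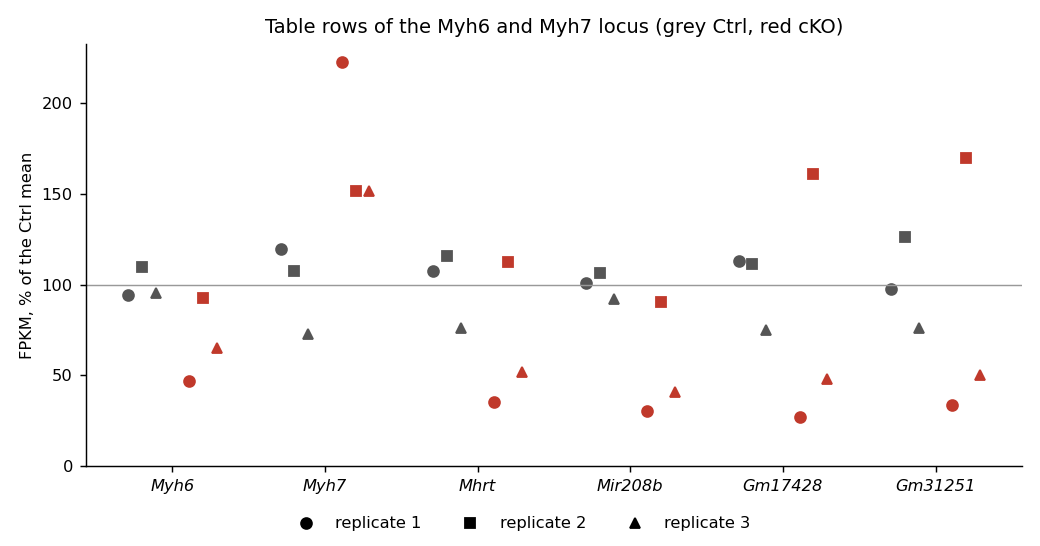
FPKM of Myh6, Myh7 and 4 rows that overlap Myh7, as a percentage of each row's Ctrl mean (vertical axis), for Ctrl hearts (grey) and cKO hearts (red), with symbols for the replicate number. In Myh7 all 3 cKO points lie above Ctrl, whereas in Mhrt, Mir208b, Gm17428 and Gm31251 cKO hearts 1 and 3 lie below Ctrl and cKO heart 2 lies apart from them.

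Both ventricular light chains were lower in cKO. Myl2 (ENSMUSG00000013936, chr5:122100951-122113472) was at 3570, 4337 and 3533 FPKM in Ctrl hearts and 2024, 3085 and 2527 FPKM in cKO hearts. Myl3 (ENSMUSG00000059741, chr9:110741861-110769798) was at 2514, 3093 and 2441 FPKM in Ctrl and 1514, 1996 and 1704 FPKM in cKO. In both genes all cKO hearts lay below all Ctrl hearts, and cKO heart 1 was the lowest and cKO heart 2 the highest of its group. The cKO means were 66.7% (Myl2) and 64.8% (Myl3) of Ctrl.

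For Myl2 the difference in log2(FPKM + 1) was -0.60 (SE 0.17, adjusted p = 0.0359, limma), and for Myl3 it was -0.63 (SE 0.14, adjusted p = 0.0162). The Myl3 call was lost without cKO heart 1 (adjusted p = 0.0504). The Myl2 call held without cKO heart 2 and was lost on leaving out Ctrl heart 1, 2 or 3 (adjusted p = 0.0692, 0.103 and 0.0730) or cKO heart 1 or 3 (0.0867 and 0.0819). Per heart, Myl2 stayed at 1.34 to 1.55 times the level of Myl3. Their sum with Myl4 and Myl7 was 1.72 to 1.99 times the summed heavy chains in Ctrl and 1.55 to 2.04 times in cKO. The groups overlapped and their means of 1.86 ± 0.135 and 1.86 ± 0.274 (SD, n = 3) did not differ beyond this spread (exact permutation p = 1). Per length of the longest coding transcript these means were 3.64 and 3.61.

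The atrial light chains varied more between hearts of a group than between groups. Myl7 (ENSMUSG00000020469, chr11:5896637-5898782) was at 679, 98.6 and 18.1 FPKM in Ctrl hearts 1 to 3 and at 71.8, 170 and 495 FPKM in cKO hearts 1 to 3. Myl4 (ENSMUSG00000061086, chr11:104550663-104595753) was at 107, 16.7 and 3.10 FPKM in Ctrl and 12.7, 26.7 and 88.0 FPKM in cKO. Both genes were highest in Ctrl heart 1, next highest in cKO heart 3 and lowest in Ctrl heart 3. Their ratio hardly moved, with 5.63 to 6.36 FPKM of Myl7 per FPKM of Myl4 by the gene lengths of the table. The size of this ratio depended on the length: per length of the longest coding transcript, Ctrl means were 265 for Myl7 and 209 for Myl4. Between groups, the difference in log2(FPKM + 1) was 0.75 for Myl7 (95% interval -2.29 to 3.79, adjusted p = 0.683, limma) and 0.70 for Myl4 (-2.14 to 3.54, adjusted p = 0.683). Without Ctrl heart 3 the differences turned to -0.50 and -0.44. Without cKO heart 3 they were 0.03 and -0.03, and without Ctrl heart 1 they were 2.07 (adjusted p = 0.170) and 1.92 (0.175).

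As a share of Myl2 plus Myl7, Myl7 took 16.0, 2.22 and 0.511% in Ctrl hearts and 3.43, 5.21 and 16.4% in cKO hearts. As a share of Myl3 plus Myl4, Myl4 took 4.10, 0.538 and 0.127% in Ctrl and 0.835, 1.32 and 4.91% in cKO. The group means were 6.23% ± 8.47 and 8.34% ± 7.02 for Myl7 and 1.59% ± 2.18 and 2.35% ± 2.23 for Myl4 (SD, n = 3). In both, the SD was as large as or larger than the difference of means, and the exact permutation test gave p = 0.5 for each (0.583 adjusted). Which share was the larger depended on the length. Per length of the longest coding transcript, Ctrl and cKO means were 3.08 and 4.08% for Myl7 and 3.42 and 5.07% for Myl4.

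The same hearts were high in other atrial genes. The mean log2(FPKM + 1) of Sln, Bmp10, Dkk3 and Kcnj3 was 4.54 in Ctrl heart 1 and 4.84 in cKO heart 3, and 1.98 to 2.77 in the others. Ranked by Pearson r with Myl7 over the 6 hearts among 11197 genes averaging 1 FPKM or more, the 5 most alike were Myl4 (0.999), Sln (0.979), Mybphl (0.979), Mlana (0.96) and Mt3 (0.957). These r values describe 6 hearts and carry no test. Sln, the atrial regulator of the calcium pump, ran at 204, 29.7 and 3.98 FPKM in Ctrl and 20.9, 24.4 and 131 FPKM in cKO. Mybphl, an atrial relative of myosin-binding protein C, ran at 42.9, 3.66 and 0.842 FPKM in Ctrl and 2.31, 8.83 and 24.9 FPKM in cKO. Of 9 atrial markers, 8 were tested, 0 were higher and 1 (Kcnj3) was lower in limma, with the same counts at an unadjusted p under 0.05 and in voom on recovered reads. Without Ctrl heart 1, 1 was higher, which was Nppa (2.69, adjusted p = 0.00929), and 0 were lower. The Kcnj3 call was lost without Ctrl heart 1 or 3 or cKO heart 1 or 2 (adjusted p up to 0.0700). The summed level of the 9 was 124 to 1320 FPKM in Ctrl and 500 to 1167 FPKM in cKO. Its range includes Nppa, the atrial natriuretic peptide, which a stressed ventricle also makes and which was at 1062, 144 and 103 FPKM in Ctrl and 469, 1127 and 938 FPKM in cKO. Nppa was thus high in cKO heart 2, where Myl7 and Sln were below Ctrl heart 1 and cKO heart 3. The ventricular markers Irx4 and Hey2 summed to 10.9 to 14.1 FPKM in Ctrl and 10.3 to 14.1 FPKM in cKO. The part of atrial tissue in the spread of Myl7 and Myl4 was not tested.

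**Figure D4:**
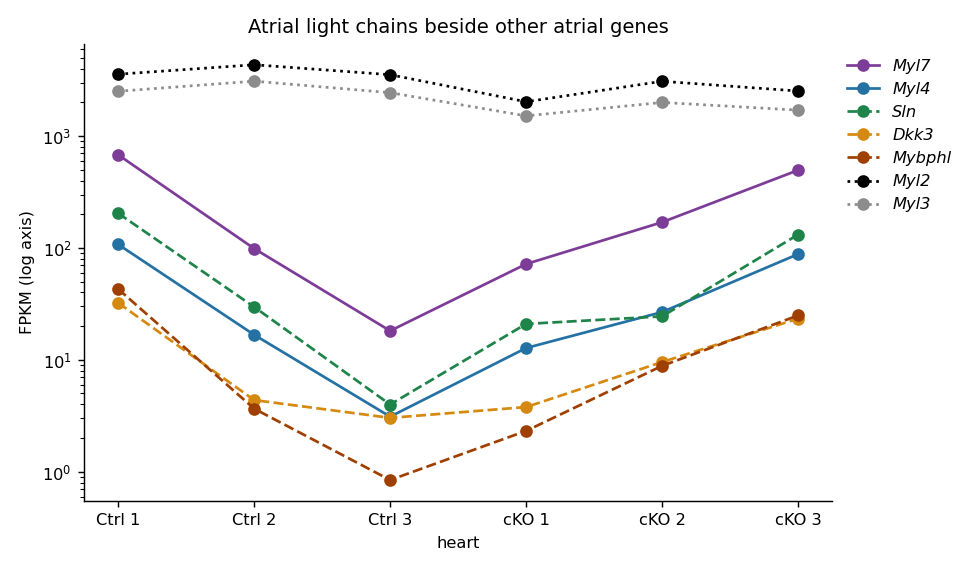
FPKM on a log axis (vertical) of Myl7, Myl4 and the atrial genes Sln, Dkk3 and Mybphl beside the ventricular Myl2 and Myl3 in each heart (horizontal); lines only join the points of a gene. The atrial genes are highest in Ctrl heart 1 and cKO heart 3, while Myl2 and Myl3 stay within 1514 to 4337 FPKM.

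With the atrial marker level as a covariate, the difference stayed at 0.79 for Myh7 and the adjusted p moved to 0.0512 (limma). Myh7b and Myl2 also passed out of the calls in that fit (adjusted p = 0.0577 and 0.0630), while Myl3 (0.0338) and Mylk3 (0.0042) did not. Without both hearts high in atrial markers, a fit of 2 against 2 hearts chosen after seeing the data, Mylk3 alone of the 9 was called. The difference of Myh7 was 1.03 in that fit.

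**Figure D5:**
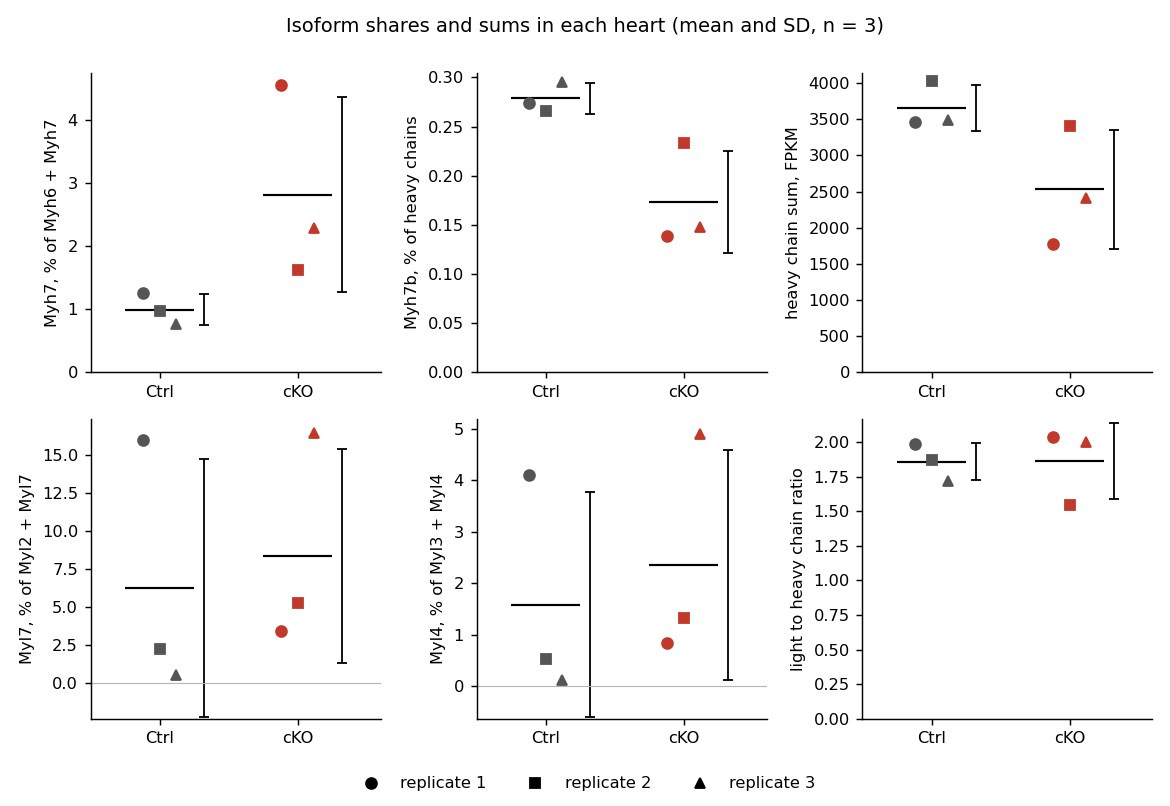
Per-heart shares, sums and ratios (vertical axes, in the unit given) in Ctrl (grey) and cKO (red), with symbols for the replicate number, a line at the mean and a bar of 1 SD. The Myh7 share is 0.759 to 1.25% in Ctrl and 1.61 to 4.55% in cKO, while the Myl7 and Myl4 shares overlap between the groups.

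Mybpc3 (ENSMUSG00000002100, chr2:91118144-91136516) was at 835, 1095 and 889 FPKM in Ctrl hearts and 574, 875 and 675 FPKM in cKO hearts. The groups overlapped, as cKO heart 2 lay above Ctrl heart 1. The mean of cKO was 75.4% of that of Ctrl and the difference in log2(FPKM + 1) was -0.42 (SE 0.18, adjusted p = 0.110, limma). Without cKO heart 2 it was -0.58 (adjusted p = 0.0301). Relative to the summed heavy chains, Mybpc3 was at 0.256 ± 0.0154 in Ctrl and 0.287 ± 0.0338 in cKO (SD, n = 3, exact permutation p = 0.2, 0.35 adjusted). The groups overlapped, and the ratio stayed higher in cKO by 0.0125 to 0.0458 on leaving out a single heart. As 3 against 3 hearts cannot give a p under 0.1, the test does not decide whether the ratio differed.

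Mylk3 (ENSMUSG00000031698, chr8:85324303-85386345) had the largest change of the 9 genes relative to its error. It was at 138, 159 and 141 FPKM in Ctrl hearts and 53.9, 60.0 and 79.5 FPKM in cKO hearts. Every cKO heart was far below every Ctrl heart. The cKO mean was 44.1% of the Ctrl mean, and the difference in log2(FPKM + 1) was -1.18 (SE 0.15, adjusted p = 0.00239, limma). It was called in all 16 alternative fits, with adjusted p between 0.000891 and 0.0128. Among the cKO hearts it was highest in heart 3, whereas Myh6, Myh7b, Myl2, Myl3 and Mybpc3 were highest in heart 2. Per 100 FPKM of regulatory light chain (Myl2 plus Myl7) there were 3.25, 3.59 and 3.97 FPKM of Mylk3 in Ctrl hearts and 2.57, 1.84 and 2.63 FPKM in cKO hearts.

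Among 13 tested genes of light chain phosphorylation, 4 were higher and 3 were lower in cKO, with a median difference of 0.03. Leaving out a single heart gave 1 higher and 2 lower without Ctrl heart 1, 2 and 2 without Ctrl heart 2, and 1 and 1 without Ctrl heart 3. The counts were 4 and 1 without cKO heart 1, 4 and 2 without cKO heart 2, and 3 and 1 without cKO heart 3. Mylk4, a second kinase of this family, fell from a mean of 29.5 to 11.9 FPKM, -1.25 in log2(FPKM + 1) (adjusted p = 0.000956, limma). Its level followed that of Mylk3, at 4.77 to 5.78 FPKM of Mylk3 per FPKM of Mylk4 in the 6 hearts. Dapk3, a kinase that acts on light chains in smooth muscle, rose by 0.52 (adjusted p = 0.0107). Ppp1r12a, a targeting subunit of myosin phosphatase, rose by 0.46 (0.0423) and Camk2d by 0.38 (0.0176). Ppp1r12a passed out of the calls without Ctrl heart 1, 2 or 3 (adjusted p up to 0.112), and Camk2d without Ctrl heart 1 or 3 (up to 0.0614).

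Of 8 tested partners of the thick filament and M-band, 3 were lower, 0 were higher, and the median difference was -0.35. At an unadjusted p under 0.05 the counts were the same in limma, and voom on recovered reads called the same number in each direction. The largest differences were those of Mybpc2, a fast-type myosin-binding protein C (-1.28, adjusted p = 0.00312, limma), and Obsl1 (-0.60, 0.00367). Mybpc2 fell from a mean of 4.80 to 1.43 FPKM. The giant spring Ttn and the M-band proteins Myom1 and Myom2 were not called, at -0.26, -0.15 and -0.51. Without cKO heart 2, 5 were lower, as Ttn and Myom2 passed the threshold (adjusted p = 0.0423 and 0.0404).

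Among 9 skeletal muscle myosins, 7 stayed under 1 FPKM in every heart, including Myh1, which was listed at 0. Of the 2 tested, Myl6b rose from a mean of 1.44 to 2.67 FPKM (0.59, adjusted p = 0.00388, limma). The summed level of 6 skeletal muscle markers was at most 2.65 FPKM in Ctrl and 1.25 FPKM in cKO. Of 7 tested non-muscle and smooth muscle myosins, Myh10 rose from 3.95 to 7.32 FPKM (0.75, adjusted p = 0.00154) and Myl6 from 41.4 to 54.7 FPKM (0.39, 0.0118), and Myh14 fell from 24.6 to 14.6 FPKM (-0.72, 0.00668). The median of these 7 was 0.35. Among the markers of other cells, 2 of 6 for fibroblasts were higher and 1 lower, with summed levels of 155 to 181 FPKM in Ctrl and 153 to 183 FPKM in cKO. For smooth muscle 1 of 4 was higher and 1 lower, at 40.2 to 49.3 and 41.3 to 71.4 FPKM, for endothelium 3 of 5 were lower, at 109 to 127 and 71.2 to 86.0 FPKM, and for macrophages 1 of 5 was lower, at 250 to 333 and 185 to 280 FPKM. Without cKO heart 2, 5 of 5 endothelial markers were lower and 0 of the smooth muscle markers were higher. No smooth muscle marker was higher without Ctrl heart 2 or 3 or cKO heart 1 either, none was lower without Ctrl heart 3 or cKO heart 3, no fibroblast marker was lower without Ctrl heart 3, and 2 macrophage markers were lower without Ctrl heart 1 and 0 without Ctrl heart 3. Their part in these values was not tested.

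Of 8 genes of myosin folding and turnover, 1 was higher and 1 was lower, and without cKO heart 2 a further 1, the muscle methyltransferase gene Smyd1, was lower (-0.41, adjusted p = 0.0181, limma). Hsp90aa1, the inducible form of a chaperone that folds the myosin head, rose from 51.9 to 191 FPKM (1.87, adjusted p = 0.000839, limma). Trim63, a ubiquitin ligase of the sarcomere known as MuRF1, fell from 69.0 to 45.1 FPKM (-0.61, 0.0208), a call lost without Ctrl heart 2 or 3 (adjusted p up to 0.0704). The dedicated myosin chaperone Unc45b was at 40.1 FPKM in Ctrl and 38.7 FPKM in cKO on average.

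Of 18 tested regulators of myosin genes, 3 were higher, 4 were lower and the median difference was -0.05. Without cKO heart 2, 4 were higher and 4 were lower. The retinoid receptors Rxra and Rxrg, which pair with thyroid hormone receptors, fell by 0.82 (adjusted p = 0.00262, limma) and 0.52 (0.0095). Dio2, which activates thyroid hormone, rose by 0.55 (0.0093) from a mean of 0.256 to 0.849 FPKM. It passed the filter of 0.5 FPKM only through its cKO values, which limits this call. Gata4, a cardiac transcription factor, rose by 0.56 (0.0244), a call lost without Ctrl heart 1 or 3 or cKO heart 1 (adjusted p up to 0.0793). Named after their values were seen, the other called genes of this list were Smarca4, the chromatin remodeller BRG1 (0.44, 0.00527), the thyroid hormone transporter Slc16a10 (-0.44, 0.00769) and the receptor Thrb (-0.42, 0.0334). Thrb passed out of the calls on leaving out any single heart other than cKO heart 1 (adjusted p up to 0.0914).

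The falls of the filament genes can be set beside the 10 cardiomyocyte markers, whose median difference was -0.61. Tcap, Pln, Atp2a2 and Ryr2, proteins of the Z-disc and of calcium handling, fell by 1.77, 1.43, 1.06 and 0.78 (adjusted p = 0.000384, 0.00148, 0.00164 and 0.00519, limma). Tnnt2 fell by 0.58 and Tnni3 by 0.64, close to Myl2 and Myl3. The markers did not move together, as Tnnc1, Actc1 and Actn2 were not called. Their differences were -0.12, -0.20 and -0.11 (adjusted p = 0.494, 0.664 and 0.512, limma), and their groups overlapped. Des, an intermediate filament gene, was higher by 0.49 (adjusted p = 0.0143). Myh6 was at 3.38 to 3.43 times the level of Tnnt2 in Ctrl hearts and at 2.61, 4.18 and 3.46 times in cKO hearts 1 to 3.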

How the data were processed

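RNA of 6 mouse hearts, 3 per group by title, was compared. Per the methods and labels, poly-A libraries were sequenced as 150-base paired ends, aligned with HISAT2 2.0.5 and counted with featureCounts 1.5.0-p3, and the authors computed the deposited FPKM from count and gene length. The submitters' processing notes also name DESeq2 1.16.1 and build mm9, whereas 98.3% of 54409 gene identifiers had the start and end of GENCODE M21 (GRCm38), which is the build used here. Replicates have no stated animal identity, so p-values measure the spread between these samples. FPKM times gene length gave whole reads (within 0.01) for 100% of values.

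The FPKM values were put on the scale log2(FPKM + 1), on which changes of low genes come out too small, and fitted with limma 3.58.1 in R 4.3.3 (intensity trend, no covariate, two-sided, Benjamini-Hochberg over 12944 genes averaging 0.5 FPKM or more, threshold 0.05). Shares and ratios per heart were compared by exact permutation (scipy 1.17.1). Alternatives changed the pseudocount, filter, scaling, trend, model, block, covariate, gene length or hearts. Named were the 9 genes, up to 4 called genes per list with the largest difference, overlapping rows and the 5 genes most like Myl7. The members and lists were chosen with earlier results of these data known. The scripts were tested on simulated data. Single genes of 2 lists are not reported here.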

Additional observations from a re-analysis of the deposited data

How the results depend on the processing

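Of 144 alternative values of the 9 genes, 113 kept direction and side of the threshold, 25 lost a call, 3 gained it and 3 reversed, the last in Myl7 (-0.50 without Ctrl heart 3, up to 2.07 without Ctrl heart 1) and Myl4 (-0.44 without Ctrl heart 3, -0.03 without cKO heart 3, up to 1.92 without Ctrl heart 1). The number called, 5 of 9, was 1 with no filter on low values (Mylk3), 2 with the atrial marker level as a covariate, 1 without both hearts high in atrial markers (chosen after seeing the data) and 1 to 7 on leaving out a single heart. The number called over all genes, 4315 of 12944, was 3279 of 26855 with no filter on low values and 3668 with the atrial marker level as a covariate. It was 2850 to 3999 on leaving out a single heart and 2018 without both hearts high in atrial markers. Fewer samples entered the fits that left out hearts. The cause of the other changes was not tested. Leaving out a single heart moved the difference of cKO minus Ctrl over 0.953 to 2.42 percentage points for the Myh7 share, -0.135 to -0.0884 for the Myh7b share, -1.91 to 6.97 for the Myl7 share, -0.51 to 2.02 for the Myl4 share, -1567 to -749 FPKM for the heavy chain sum, -0.0859 to 0.161 for the light to heavy chain ratio and 0.0125 to 0.0458 for Mybpc3 relative to heavy chains. The Myl7 share reversed without Ctrl heart 3 (-0.756) and cKO heart 3 (-1.91), the Myl4 share without cKO heart 3 (-0.51), and the light to heavy chain ratio without Ctrl heart 3 (-0.068), cKO heart 1 (-0.0859) and cKO heart 3 (-0.0652) and, from a main difference of 0.00329, on reads not divided by length (-0.00481) and per length of the longest coding transcript (-0.0237, an alternative chosen after seeing the data). Among 56 other named genes, 787 of 894 alternative values kept direction and side, 93 lost a call, 14 gained it and 0 reversed.

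The replicate numbers did not pair the samples: deviations from the group means correlated at -0.0554, 0.175 and -0.0148 for replicates 1, 2 and 3. With the replicate block, 6 of the 9 genes were called, beside 3856 of all 12944 genes, Mybpc3 being added (adjusted p = 0.0308, limma). The Myh7 share differed by 1.82 percentage points (exact sign-flip p = 0.25, the smallest that 3 pairs allow). Scaling without genes encoded by mtDNA moved the median of all genes to 0.05 and changed no call among the 9. Median-of-ratios scaling changed none either, but its factors were only 0.991 to 1.02, so it could change little. Under the first of these scalings the groups overlapped in the heavy chain sum (exact permutation p = 0.3) and also in Myh6. Depth limits the short rows most: 1 to 15 reads per heart lay behind Gm11665 and 4 to 32 behind Gm22000, the 2 called rows on the strand opposite to Myl4.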

Other observations

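Of the 9 genes, 7 were overlapped by 16 other rows of the table, and 11 of those rows passed the filter. Gm22000 and Gm11665, which lie within Myl4 on the opposite strand, were both higher in cKO, by 0.86 (adjusted p = 0.0115, limma) and 0.94 (0.0196) in log2(FPKM + 1). Their Ctrl means were 0.419 and 0.411 FPKM. Both rows thus passed the filter of 0.5 FPKM only through their cKO values, which limits these calls. Gm22000 was at 0.503, 0.527 and 0.227 FPKM in Ctrl hearts and 2.10, 0.997 and 1.74 FPKM in cKO hearts, so the groups did not overlap, unlike those of Myl4. Gm11665 was not called without Ctrl heart 2 or 3 or cKO heart 1 or 3 (adjusted p up to 0.0664). In the gene of Mylk3, AA672651 on the opposite strand was at 1.07, 1.87 and 1.86 FPKM in Ctrl hearts and 0.725, 1.58 and 0.406 FPKM in cKO hearts and was not called (-0.48, adjusted p = 0.162), although without cKO heart 2 it was (0.0292).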
